A study of Mus musculus with 15 samples.

Results

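The newborn wild-type (WT) cerebellum was described here from the 8 WT arrays of a series of 15, in which the other 7 came from Cxcr4 knockout animals and are not described. Members were chosen by genotype label alone, and all 16593 genes with a named probe were described. The WT mice were one day old (P1) and of the C57BL/6 strain. In the study they are littermates without the Sox1-Cre driver, from crosses of mice with a loxP-flanked Cxcr4 gene (Cxcr4 flox/flox), so WT here means Cre-negative. The cerebellum was dissected, and its RNA was amplified, biotin labelled and hybridised to an Illumina MouseRef-8 v2 BeadChip, which reads a gene through 1 or a few short probes. The labels give neither the sex nor the litter of a mouse, nor which arrays shared a BeadChip, so the spread between arrays holds animal, dissection and array together.

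The cerebellum at birth is still being built. Granule cell precursors divide in the external granule layer on its surface under Sonic hedgehog from Purkinje cells, held at the pial surface by CXCL12 from the meninges acting on CXCR4. Purkinje cells have left the ventricular zone and stand in a layer several cells deep that will thin into a single row, guided by reelin, while Bergmann glia send radial fibres to the surface. Synapses, mature receptors and myelin mostly come later, and the choroid plexus of the fourth ventricle, which makes cerebrospinal fluid, lies against the tissue.

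Values are the log2 of the probe signal after each array was scaled to a common median of 6.84. A gene was read by its brightest probe. Each probe binds with its own strength, so the signal ranks probes and not RNA amounts between genes, and a dim probe does not show that a transcript was missing. Because no detection p-value was used, a reference level of 6.63 was set at the 95th percentile of the mean signal of 1305 genes of olfactory, vomeronasal and taste receptor, hair keratin-associated and defensin families, which brain is not known to use widely. The median of these reference genes was 6.15. A gene is called above the reference level where it passed 6.63 on all 8 arrays, and 17 of the reference genes (1.30%) did so.

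Of all genes, 8897 (53.6%) were above the reference level on every WT array, 5236 (31.6%) were above it on none, and 2460 (14.8%) on some. All genes here include the 1305 reference genes, of which 17 were called. The 53.6% set beside the lists below is therefore lower than the share among the remaining genes. The median gene had a mean of 7.03, the upper quartile began at 9.32, and 88 genes had a mean over 14. Array medians of the raw signal ran from 101.2 to 120.8. Across the called genes, the correlation between arrays had a median of 0.991 over 28 pairs, from 0.983 for arrays 6 and 7 to 0.996 for arrays 2 and 3. These are correlations across genes, which are not independent replicates.

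**Figure D1:**
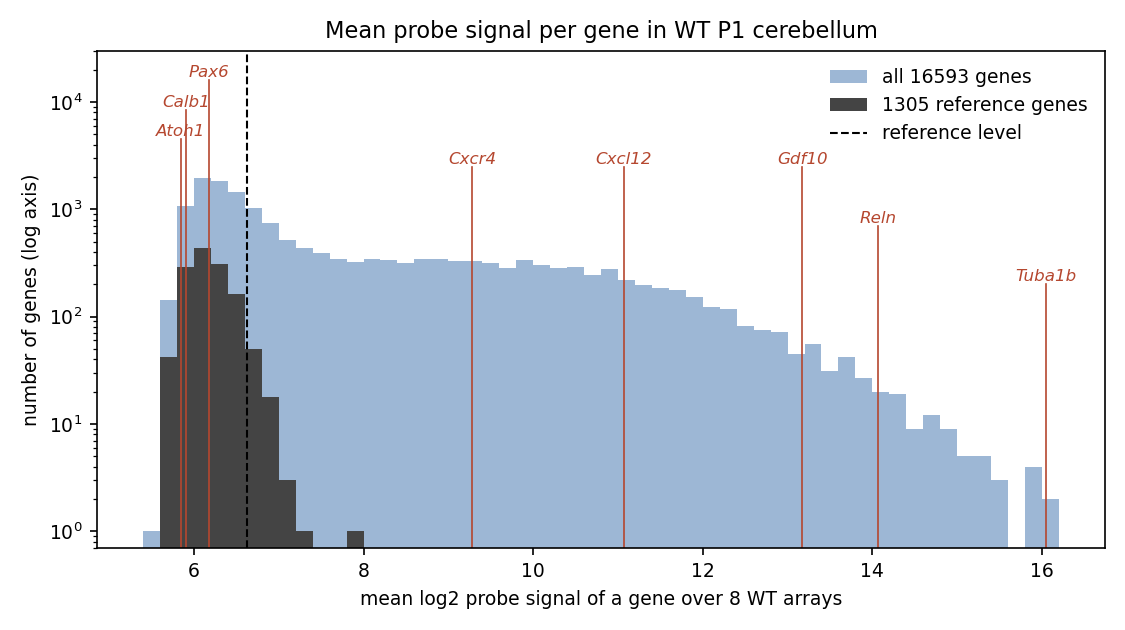
Histogram of the mean log2 probe signal over 8 WT arrays for 16593 genes, on a logarithmic vertical axis, with the 1305 reference genes in dark grey and the reference level of 6.63 as a dashed line. Red lines place single genes, with Gdf10 at 13.17 far to the right and Atoh1, Calb1 and Pax6 left of the line.

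The brightest probes included those of cytoskeleton genes and of the machinery of protein synthesis. Tuba1b and Tubb2b, which encode tubulins of the microtubules, led with means of 16.05 ± 0.05 and 16.05 ± 0.06 (SD, n = 8, as throughout). Ckb, the brain creatine kinase, followed at 15.91 ± 0.09, and Tubb5 stood at 15.87 ± 0.05. Tmsb10, which binds actin monomers, was at 15.42 ± 0.13, and Nrep, a gene of growing and regenerating neurons, at 15.05 ± 0.11. Among the 20 genes of highest mean, 9 encode cytosolic ribosomal proteins (Rplp1, Rpl41, Rpl38, Rpl23, Rps20, Rps12, Rpl9, Rps2 and Rpl37), from 15.10 to 15.89. Atp5b and Atp5g3, subunits of the mitochondrial ATP synthase, were at 15.34 and 15.01. The other members were Ubb-ps, a ubiquitin pseudogene symbol, and the histone genes H2ac24 and H2ac20. Tubulin, ubiquitin, histone and ribosomal protein genes have near-identical copies, so which copy these probes read is uncertain.

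Promoter sequences were set beside these values because the bright and the dim genes differed in base composition at their starts. Promoters of 300 bases (250 before and 50 after the start, RefSeq, GRCm38.p6) were found for 13336 of the 16593 genes (80.4%). The median number of CpG dinucleotides was 21 in promoters of genes above the reference level on all arrays and 4 in those of genes above it on none, against 15 over all genes. The TATA motif TATAAA, searched on both strands, was in 7.03% of the first, 21.7% of the second and 12.7% of all, but in 15.4% of those of the 200 genes of highest mean. The motif CGGAAG, searched on both strands with no overlap between its matches, is the core that ETS factors bind. It was in 34 of the 49 ribosomal protein promoters found (69.4%), in 37.0% of those of the 200 genes of highest mean, and in 22.9% of all. Promoters of genes above the reference level on all arrays held it in 31.3%, and those of genes above it on none in 11.8%. The 200 genes include ribosomal protein genes, so their share is not separate from the ribosomal one. The 1305 reference genes that set the level, of which 17 were called, were not left out of these groups. Part of the difference between called and dim genes is therefore set by the choice of level. These shares describe letters in a window and show no binding.

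Shown first are promoters of Rpl38 (chr11:114668330-114668629, plus strand) and Rpl37 (chr15:5116363-5116662, plus strand), which carry CGGAAG in 2 and 3 places. Capitals mark the motif on either strand, and both genes are among the 20 of highest signal.
Rpl38: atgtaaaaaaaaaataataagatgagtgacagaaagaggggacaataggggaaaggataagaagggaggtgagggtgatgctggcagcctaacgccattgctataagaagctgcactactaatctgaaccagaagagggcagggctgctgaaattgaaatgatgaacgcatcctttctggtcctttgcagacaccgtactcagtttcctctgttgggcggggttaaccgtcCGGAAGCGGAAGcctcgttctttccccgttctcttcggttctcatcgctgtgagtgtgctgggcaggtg
Rpl37: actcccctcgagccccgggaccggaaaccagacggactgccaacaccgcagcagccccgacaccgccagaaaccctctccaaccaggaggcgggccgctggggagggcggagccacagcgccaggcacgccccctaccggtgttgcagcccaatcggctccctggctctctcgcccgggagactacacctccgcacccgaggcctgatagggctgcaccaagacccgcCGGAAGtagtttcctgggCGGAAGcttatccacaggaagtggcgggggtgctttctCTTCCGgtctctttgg

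Promoters of a bright and of a dim cerebellar gene are shown next for their CpG content, with every CpG in capitals. Gdf10 (chr14:33923337-33923636, plus strand), a Bergmann glia gene above the reference level, holds 42, and Gabra6 (chr11:42321023-42321322, minus strand), a gene of mature granule cells above it on no array, holds 2.
Gdf10: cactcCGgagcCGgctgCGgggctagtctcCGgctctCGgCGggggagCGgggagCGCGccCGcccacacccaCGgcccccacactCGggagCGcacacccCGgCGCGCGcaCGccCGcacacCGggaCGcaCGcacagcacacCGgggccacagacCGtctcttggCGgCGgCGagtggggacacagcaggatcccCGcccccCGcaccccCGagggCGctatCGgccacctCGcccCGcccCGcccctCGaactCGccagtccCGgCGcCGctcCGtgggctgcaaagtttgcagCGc
Gabra6: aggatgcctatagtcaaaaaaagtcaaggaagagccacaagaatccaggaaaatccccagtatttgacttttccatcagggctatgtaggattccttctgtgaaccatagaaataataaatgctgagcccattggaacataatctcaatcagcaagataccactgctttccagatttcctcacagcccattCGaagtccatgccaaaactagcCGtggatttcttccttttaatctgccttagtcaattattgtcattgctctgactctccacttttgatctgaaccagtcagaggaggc

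The tissue was checked against 4 cerebellar markers, and they split. Gdf10, a growth factor of Bergmann glia, was bright at 12.84 on the lowest array, 13.15 at the median and 13.49 on the highest. Atoh1, the transcription factor that founds the granule lineage, had a mean of 5.85 ± 0.17 and passed the reference level on no array. Calb1, the calcium buffer of Purkinje cells, stood at 5.91 ± 0.13 and Pax6, a granule lineage regulator, at 6.17 ± 0.05, also above it on no array. Each of these 3 genes has 1 probe here, and P1 cerebellum is known to use all of them. Probes of genes that all cells use can be as dim, since 5 of 58 ribosomal protein genes (Rps23, Rplp2, Rpl6, Rpl17 and Rpl14) were above the reference level on no array. Of 3370 called genes with several probes, 1513 (44.9%) also had a probe at or below the level.

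Other genes that the cerebellum uses were bright, though not all are particular to it. En2, a homeobox gene that patterns the cerebellum and midbrain, was at 12.34 ± 0.21, and Zic1 and Barhl1, regulators of granule cells, were at 12.85 ± 0.07 and 11.21 ± 0.13. Genes of other regions were mostly dim. Of 25 Hox genes, which are used behind the cerebellum, 2 were above the reference level (8.0%, against 53.6% of all genes), namely Hoxc10 at 7.00 and Hoxc4 at 6.94. Of 15 forebrain regulators, 1 was (6.67%), namely Tbr1 at 6.98, which neurons of the cerebellar nuclei also use. Of 16 genes of brainstem monoamine and cholinergic neurons, 4 were (25%), led by Isl1 at 7.32. Of 26 midbrain and isthmus regulators, 8 were (30.8%), led by En2, with Otx2 at 10.93 and Meis2 at 10.66, and 10 passed on no array.

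**Figure D2:**
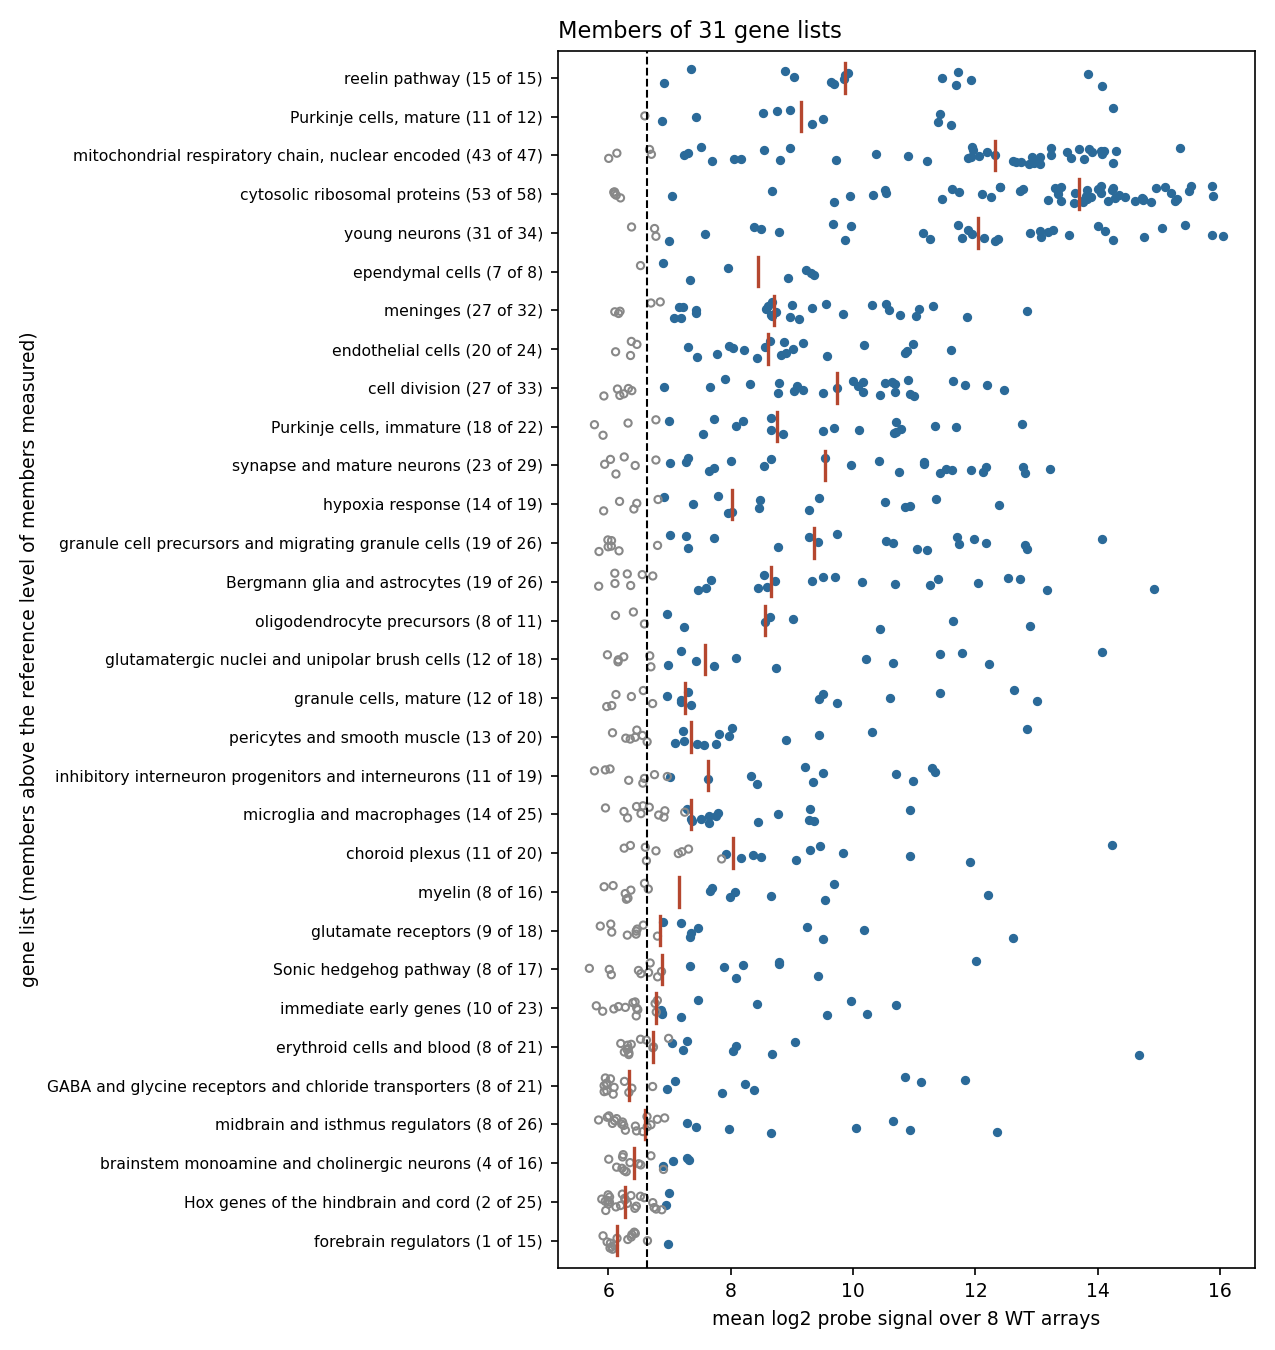
Mean log2 probe signal over 8 WT arrays for the members of 31 gene lists, ordered by the share above the reference level (dashed line). Filled points passed it on all arrays, open points did not, and red bars are list medians. The reelin list passed whole, 15 of 15, and the forebrain list reached 1 of 15. Over all genes the share was 53.6%.

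Most genes of the granule lineage list passed the reference level, but 6 members, Atoh1 and Pax6 among them, passed on no array. Of 26 genes of granule cell precursors and migrating granule cells, 19 were above the reference level (73.1%), with a list median of 9.36 against 7.03 over all genes. Reln, the secreted guide of Purkinje cell layering, was at 14.07 ± 0.11, Zic1 at 12.85, and Ccnd1, a cyclin of precursors driven by Sonic hedgehog, at 12.81 ± 0.24. Meis1, a homeobox gene of the lineage, was at 12.17 ± 0.16. Neurod1, which drives granule cell differentiation, was at 7.30 ± 0.17. Gli1 and Mycn, targets of Sonic hedgehog in precursors, were at 6.05 and 6.00 and passed on no array, like Atoh1, Pax6, Nhlh1 and Nhlh2. Reln is also in the list of glutamatergic nuclei, and Zic1 in those of meninges and pericytes. Of 17 genes of the Sonic hedgehog pathway, 8 were above the reference level (47.1%, against 53.6% of all genes).

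Genes of mature granule cells were split. Of 18, 12 were above the reference level (66.7%, against 53.6% of all genes). They were led by Cadps2, a factor of dense-core vesicle release, at 13.00 ± 0.17. Nfix, a regulator of late differentiation, was at 12.63 ± 0.22, and Calb2, calretinin, at 11.43 ± 0.20. Members known from the adult cell fell on either side. Gabra6, the GABA receptor subunit of mature granule cells, was at 5.97 ± 0.15, Cbln3, a partner of cerebellin, at 6.06 ± 0.10, and Fat2, a cadherin of parallel fibres, at 6.38 ± 0.09. These 3 passed on no array. Slc17a7, a vesicular glutamate transporter of mature granule cells, was at 7.18 ± 0.09, and Gabrb2, a GABA receptor subunit, at 6.95 ± 0.19, on all 8 arrays. Gabrd, another such receptor subunit, passed on 7 arrays at 6.72, and Grin2c, the mature NMDA receptor subunit, on all 8 at 7.35.

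Purkinje cell genes were largely above the reference level. Of 22 genes of immature Purkinje cells, 18 were (81.8%, against 53.6% of all genes). They included Slc32a1, the vesicular GABA transporter, at 12.76 ± 0.12, and Vldlr, a reelin receptor, at 11.67 ± 0.10. Gad1, the GABA-making enzyme, was at 11.33 ± 0.28, and Rora, needed for Purkinje cell growth, at 10.67 ± 0.13. Lhx1 and Lhx5, homeobox genes of early Purkinje cells, were at 10.70 and 9.52, and Foxp2 was at 8.85. Shh, the mitogen Purkinje cells give to granule precursors, was at 8.09 ± 0.26. Gad2, the second GABA-making enzyme, was at 5.77 ± 0.09 and Pcp4 at 6.32 ± 0.08, above the level on no array.

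Of 12 genes of mature Purkinje cells, 11 were above the reference level (91.7%, against 53.6% of all genes). Cbln1, the cerebellin that granule cells also release to build Purkinje synapses, was at 14.26 ± 0.15, Pcp2 at 11.60 ± 0.22, and Aldoc, the zebrin II antigen that glia share, at 11.38 ± 0.27. Cacna1g, a T-type calcium channel, was at 9.51 ± 0.35, and Pvalb, parvalbumin, at 9.33 ± 0.26. Slc1a6, the Purkinje glutamate transporter, was at 7.44 ± 0.16. The reelin pathway passed whole, 15 of 15 genes, from Fyn, its kinase, at 6.91 to Reln. Dab1, the adaptor that receives the signal, was at 9.68 ± 0.26, and Cdk5r1, the activator of a parallel kinase, at 13.84 ± 0.14.

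Genes of Bergmann glia and astrocytes were mostly above the reference level. Of 26 members, 19 were above the reference level (73.1%, against 53.6% of all genes). Slc1a3, the glutamate transporter GLAST, was at 14.91 ± 0.13 and Gdf10 at 13.17. Gja1, connexin 43, was at 12.72 ± 0.26, and Vim, the filament of radial glia, at 12.54 ± 0.23. Hes5, a Notch target, had the largest spread of the list at 9.33 ± 0.45, from 8.86 to 10.23. Aldh1l1 and Aqp4, an enzyme and a water channel of astrocytes, were at 11.26 ± 0.14 and 10.68 ± 0.26 and passed on all arrays. Gfap, the filament of mature astrocytes, was at 6.36 ± 0.13, S100b at 6.11 ± 0.13 and Hopx, of radial and Bergmann glia, at 5.84 ± 0.19, above the level on no array. Glul, glutamine synthetase, was also dim at 6.31 ± 0.18.

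Most oligodendrocyte precursor genes passed the reference level, and myelin genes were mixed. Of 11 precursor genes, 8 were above the reference level (72.7%), led by Olig1, a regulator of the lineage, at 12.89 ± 0.24, Bcas1 at 11.63 ± 0.15 and Pdgfra, the growth factor receptor of precursors, at 10.44 ± 0.19. Olig2 was at 6.59 and passed on 3 arrays, and Tnr and Zfp488, at 6.11 and 6.41, passed on none. Of 16 myelin genes, 8 were above the level (50%), close to the 53.6% of all genes. Cldn11, the tight junction protein of myelin that meninges also use, was at 12.20 ± 0.44, and Mbp, the major myelin protein, at 9.55 ± 0.12. Ugt8a and Fa2h, enzymes of myelin lipids, at 8.07 and 7.66, and Mag, an adhesion protein of the inner myelin layer, at 7.99, also passed on all arrays. Mog at 6.32, Mobp at 6.29, Mal at 6.37 and Opalin at 6.27 were among 6 members that passed on none.

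Of 19 genes of inhibitory interneurons and their progenitors, 11 were above the reference level (57.9%), near the 53.6% of all genes. Ptf1a, which commits ventricular zone cells to the GABA fate, was at 8.42 ± 0.22, and Neurog2, a proneural factor in its lineage, at 7.62 ± 0.21. Pax2, the marker of young interneurons, was at 6.56 ± 0.13 and passed on 4 arrays. Of 18 genes of glutamatergic nuclei and unipolar brush cells, 12 were (66.7%), with Slc17a6, a vesicular glutamate transporter, at 12.21 ± 0.24, Lmx1a at 8.74 ± 0.22 and Eomes, a regulator of unipolar brush cells, at 7.72 ± 0.26. Lhx9, a homeobox gene of the nuclei, varied from 6.98 on array 8 to 8.05 on array 7.

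Genes of young neurons and of cell division were widely above the reference level. Of 34 genes of young neurons, 31 were above the reference level (91.2%, against 53.6% of all genes), with a list median of 12.04. Below the tubulins stood Stmn2, a regulator of microtubules in growth cones, at 14.25 ± 0.20, Dpysl2, which carries semaphorin signals, at 14.12 ± 0.15, Dcx, doublecortin of migrating neurons, at 12.32 ± 0.12, and Gap43, of growth cones, at 11.79 ± 0.23. Of 33 cell division genes, 27 were (81.8%), median 9.74, among them Cenpa, the centromere histone, at 12.47 ± 0.12, Mcm4 and Mcm5, of the replicative helicase, at 12.18 and 11.83, and Top2a at 11.00 ± 0.17. Ccnb2 and Ccna2, the mitotic cyclins, were at 5.93 and 6.19 and passed on no array.

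Genes of synapses and mature neurons mostly passed the reference level, and receptor genes passed in part. Of 29 genes of the first list, which also holds the myelin genes Mbp and Cnp, 23 were above the reference level (79.3%), with Cplx1, complexin, at 13.22 ± 0.09, Syp, synaptophysin, at 12.80 ± 0.19, and Syn1, synapsin, at 12.12 ± 0.21. Snap25, a core fusion protein that neurons use widely, was at 6.12 ± 0.14 on its probe. Of 18 glutamate receptor genes, 9 were (50%, against 53.6% of all genes). The AMPA receptor subunits Gria2 and Gria1 were at 12.62 ± 0.18 and 9.51 ± 0.13. Of 21 genes of GABA and glycine receptors and chloride transporters, 8 were above the level (38.1%), below the share of all genes. Slc12a2, which loads chloride into young neurons, was at 11.84 ± 0.17, and Slc12a5, which removes it in mature ones, was at 6.03 ± 0.13. Glra2, the fetal glycine receptor subunit, was at 11.12 ± 0.26, and Glra1, the adult one, at 5.97 ± 0.10. Each stands on its own probe, so the signals do not give the ratio of the transcripts.

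Genes of vessels, immune cells and blood were measured as well. Of 24 endothelial genes, 20 were above the reference level (83.3%), led by Egfl7 at 11.60 ± 0.22. Of 20 genes of pericytes and smooth muscle, 13 were (65.0%), and of 25 of microglia and macrophages, 14 were (56.0%), near the 53.6% of all genes, with Laptm5 at 10.92 ± 0.27 and C1qb, a complement subunit, at 9.35 ± 0.15. Of 21 genes of erythroid cells and blood, 8 were (38.1%), and Gata1, a regulator of red cells, and Hbb-b2, a beta globin, passed on no array at 6.33 each. Hba-a1, alpha globin, was at 14.68 ± 0.40, from 14.18 on array 2 to 15.32 on array 8. In tissue of mixed cells, fewer cells of a type and less RNA per cell cannot be told apart.

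Cxcr4 and its ligand were both above the reference level. Cxcr4 was 8.80, 9.18, 9.13, 9.14, 9.72, 9.05, 9.79 and 9.45 on arrays 1 to 8, highest on arrays 5 and 7. Cxcl12 was 11.60, 10.76, 11.19, 10.66, 11.45, 11.53, 10.28 and 11.10 on its brightest probe, lowest on array 7.

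Most genes varied little between arrays. The median SD of the 8897 called genes was 0.158, with an upper quartile of 0.201, and 64 of them (0.719%) had an SD over 0.5. Among the 9997 genes above the reference level on average, 91 had an SD over 0.5 and 17 an SD over 1. The steadiest was Lasp1, an actin-binding protein, at 13.11 ± 0.03 from 13.07 to 13.14, and Eif3d, Cops3 and Chchd1, of translation initiation, the signalosome and mitochondria, had SDs of 0.04. Median SD was 0.123 for means up to the reference level, 0.174 for means between 8 and 10 and 0.102 for means over 14. Saturation near the highest signals, which can narrow the spread of the brightest probes, was not tested. The order of the steadiest genes rests on the scaling, since Lasp1 had the lowest SD here but was number 483 after quantile normalization and number 283 without normalization.

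**Figure D3:**
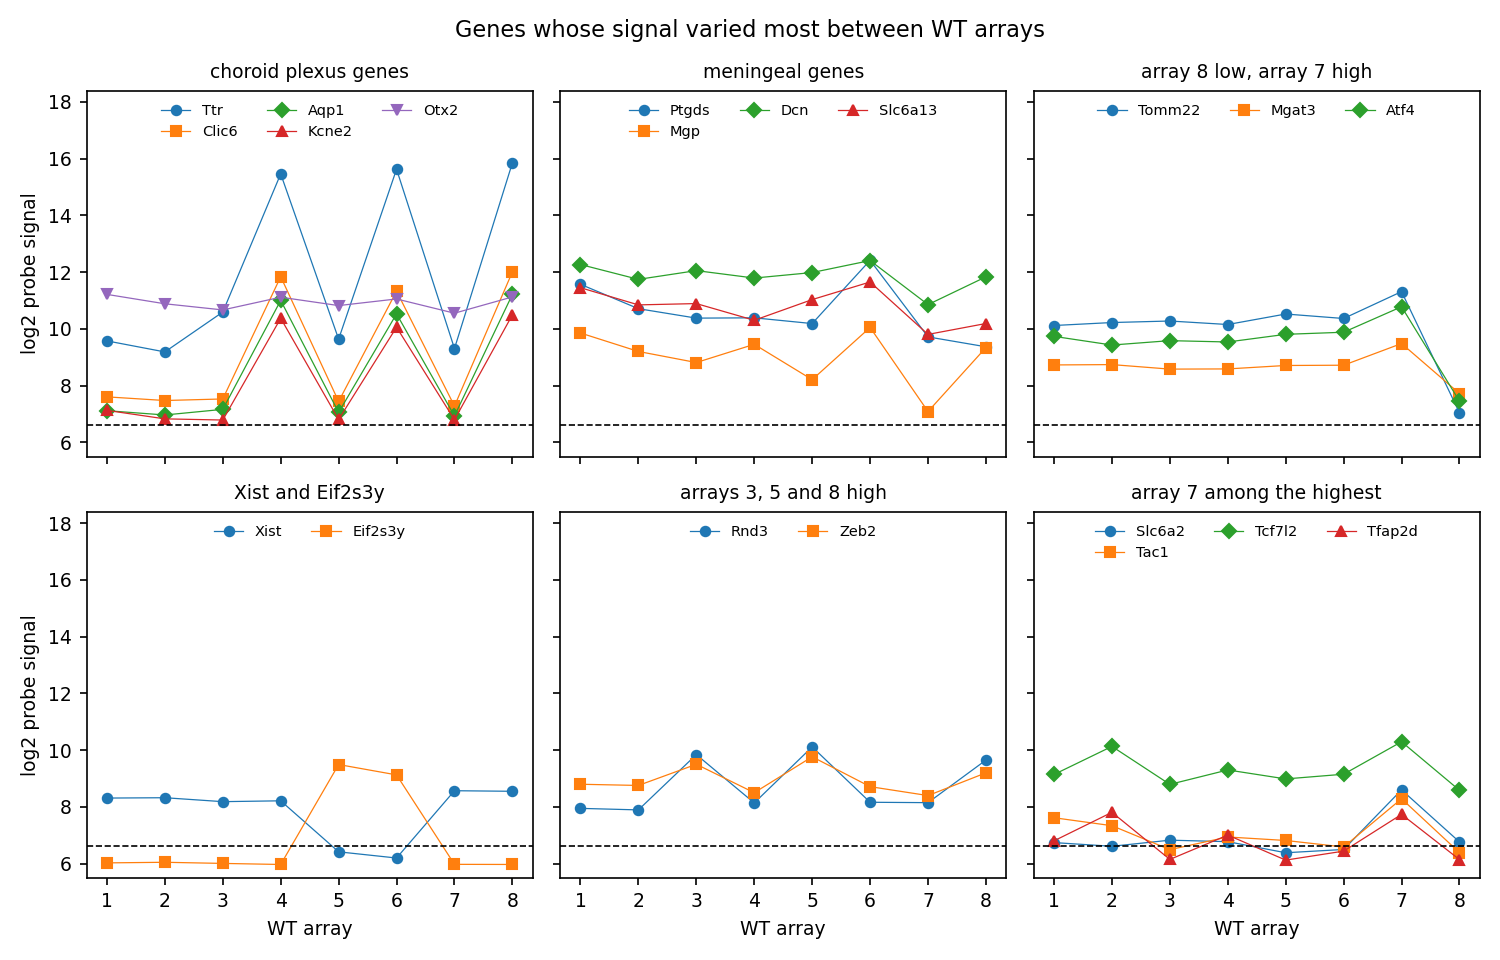
Log2 probe signal on each of the 8 WT arrays for genes of high spread, with Otx2 for contrast and the reference level as a dashed line. Lines join the points of a gene and imply no order of arrays. Ttr, Clic6, Aqp1 and Kcne2 stand high on arrays 4, 6 and 8, and Tomm22 falls to 7.05 on array 8.

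The widest variation was in genes of the choroid plexus. Ttr, transthyretin, the main secreted protein of that epithelium, was 9.58, 9.19, 10.59, 15.46, 9.64, 15.63, 9.31 and 15.85 on arrays 1 to 8. Clic6, a chloride channel protein, was 11.84, 11.33 and 12.01 on arrays 4, 6 and 8 and from 7.28 to 7.61 on the other 5. Aqp1, the water channel, was 11.00, 10.53 and 11.22 there and from 6.93 to 7.17 elsewhere. The arrays fell into separate sets with no overlap in each of these genes. Among the 100 genes of highest SD, 43 had their widest gap between these same 3 arrays and the others, with differences of 0.90 to 5.98 and a median of 1.40. Among all genes, 412 (2.48%) were higher on arrays 4, 6 and 8 without overlap, or 196 without normalization.

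Not all choroid plexus genes followed. Of 20 in the list, 14 were higher on arrays 4, 6 and 8 without overlap, against 2.48% of all genes. The sets of arrays were drawn from the widest gap in Ttr, itself a list member, so its own split is given by construction. On all 3 high arrays 17 members passed the reference level, and on all 5 low ones 11. Passing on 5 arrays is a stricter demand than passing on 3, so these counts are not like for like. Kcne2, a potassium channel subunit, Sostdc1, a secreted Wnt and BMP inhibitor, and Folr1, the folate receptor, were among those that split. Otx2, which the epithelium needs but granule precursors of posterior folia also use, overlapped, with 11.22 on array 1 and 11.13 on array 8. Igf2, a growth factor of choroid plexus and meninges, overlapped too, from 13.28 on array 7 to 14.86 on array 6. Defb11, a beta-defensin and 1 of the reference genes, was 10.73, 10.39 and 11.15 on arrays 4, 6 and 8 and at most 6.25 elsewhere. In the other direction, 284 genes (1.71%) were lower on arrays 4, 6 and 8 without overlap. The widest difference among them was in Fam171a1, of a little-studied membrane protein, which was 6.81, 6.94 and 6.90 on these arrays and at least 8.10 on the rest.

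Meningeal genes varied along another line. The mean of the 32 list members was lowest on array 7 at 8.31 and highest on array 6 at 9.41. Of these members, 27 were above the reference level (84.4%, against 53.6% of all genes). Ptgds, the prostaglandin D synthase of the leptomeninges, was 12.42 on array 6, 11.57 on array 1 and 9.37 on array 8. Mgp, matrix Gla protein, was 7.09 on array 7 and from 8.21 to 10.05 on the others, and Dcn, the matrix proteoglycan decorin, 10.86 on array 7 and from 11.75 to 12.41 elsewhere. Of the 100 genes of highest SD, 9 had arrays 1 and 6 above their widest gap. Among them were Ccn2 and Lox, and, from the meninges list, only Ptgds and Foxc1, a regulator of the meninges. A further 10 were lowest on array 7 alone, and of these only Mgp and Ogn are in the meninges list. Acta2 is in the pericyte list and S100a8 in the blood list. The rest, Apod, Xlr4a, Sult1a1, Stfa1, Bmp4 and Gstm2, are in none of the lists. Array 8, high in choroid plexus genes, was not high in meningeal ones.

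Array 7 was low in lists of the coverings, vessels and blood. It was lowest for the choroid plexus, meninges, pericyte and blood lists under all 4 scalings, and for microglia under all but the one without normalization, where array 8 was lower. Its mean was the highest of all arrays in 11 of 33 lists, as was that of array 5, with young neurons among its own (11.82 against 11.45 on array 3). Without normalization it led in 1 of 33, and after quantile normalization in 8. It was lowest in 8 lists, as was array 1. Which array led in neural genes therefore rests on the scaling. It also held the highest Slc6a2, the noradrenaline transporter, at 8.60 against 6.38 to 6.83 on the others on the brightest of 3 probes (SD 0.70, or 0.247 for the mean of the probes), and the highest Tac1, the substance P precursor, at 8.29 against 6.39 to 7.62. Tcf7l2, a factor of Wnt signalling also known from thalamus and midbrain, was 10.13 and 10.29 on arrays 2 and 7 and at most 9.30 elsewhere. Tfap2d, known from midbrain, was 7.81 and 7.74 on the same arrays and at most 7.01 elsewhere. The part of dissection in these values was not tested.

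**Figure D4:**
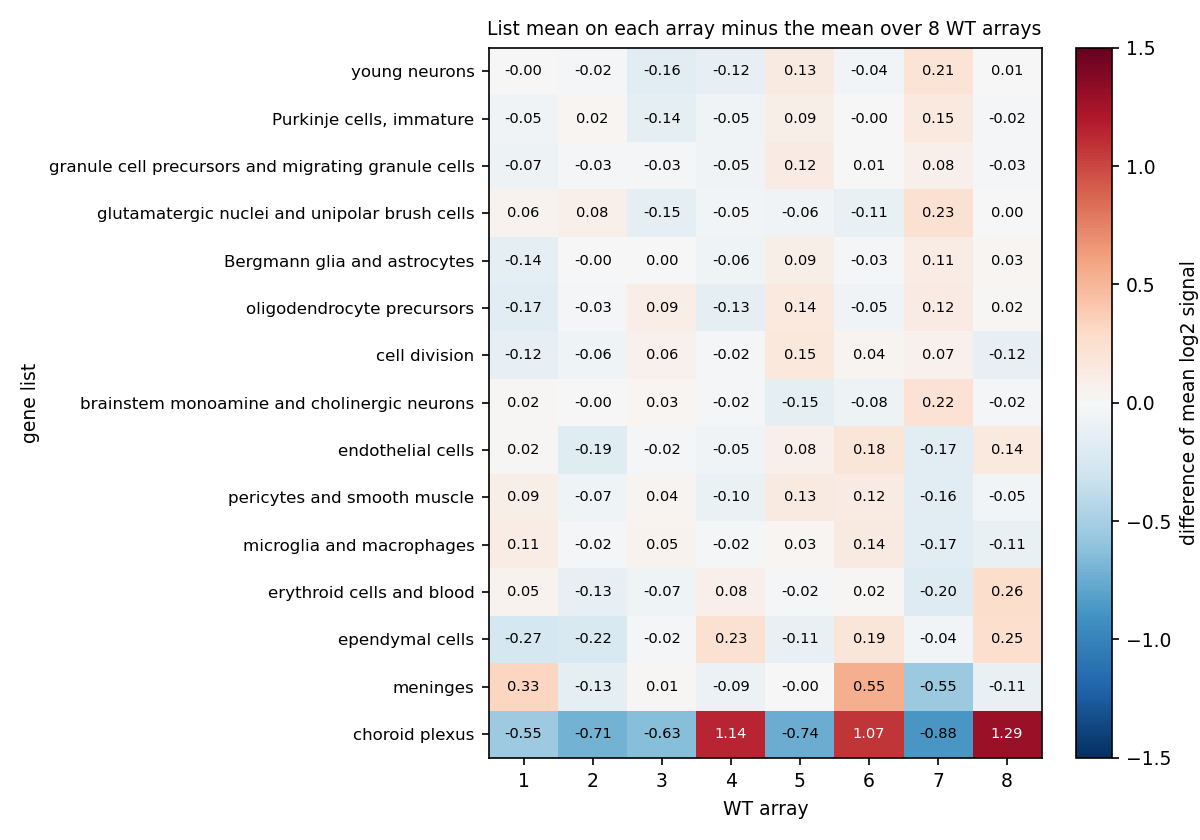
Mean log2 signal of 15 gene lists on each WT array, minus the mean of that list over the 8 arrays, with red for higher and blue for lower. Arrays 4, 6 and 8 are higher in the choroid plexus list by 1.14, 1.07 and 1.29, and array 7 is lower in the meninges list by 0.55.

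Of 8 measured sex chromosome markers, Eif2s3y, Xist and Kdm5d separated the arrays. Eif2s3y, a Y-linked translation factor, was 9.49 and 9.13 on arrays 5 and 6 and from 5.97 to 6.05 on the other 6. Xist, the RNA that silences an X chromosome, was 6.42 and 6.20 on arrays 5 and 6 and from 8.18 to 8.57 elsewhere. Kdm5d, a Y-linked demethylase, was also highest there, at 7.29 and 6.83. Uty, likewise Y-linked, was above the reference level on all 8 arrays at 7.19 ± 0.13 and did not separate them. The other members, Usp9y, Zfy1, Zfy2 and Sry, passed on no array. Arrays 5 and 6 did not share a level of choroid plexus genes.

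Arrays 8 and 7 stood apart in 3 genes of a stretch of chromosome 15. Tomm22, of the mitochondrial import pore, had a linear signal, scaled to the common median, of 132.1 on array 8, 2546 on array 7 and 1113 to 1474 on the other 6. Atf4, the transcription factor of the integrated stress response, was 7.46 in log2 signal on array 8, 10.78 on array 7 and 9.43 to 9.88 elsewhere. Mgat3, an enzyme of N-glycan branching, moved less, by -0.96 on array 8 and 0.80 on array 7 from the mean of the other 6. These 3 genes lie within a run of 17 protein-coding genes in the RefSeq order, all measured. The 14 others stayed within -0.09 and 0.36 of that mean on array 8, including Mief1, which lies between Mgat3 and Atf4. On array 7 they ranged from -0.14 to 0.57, highest in Mief1.

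**Figure D5:**
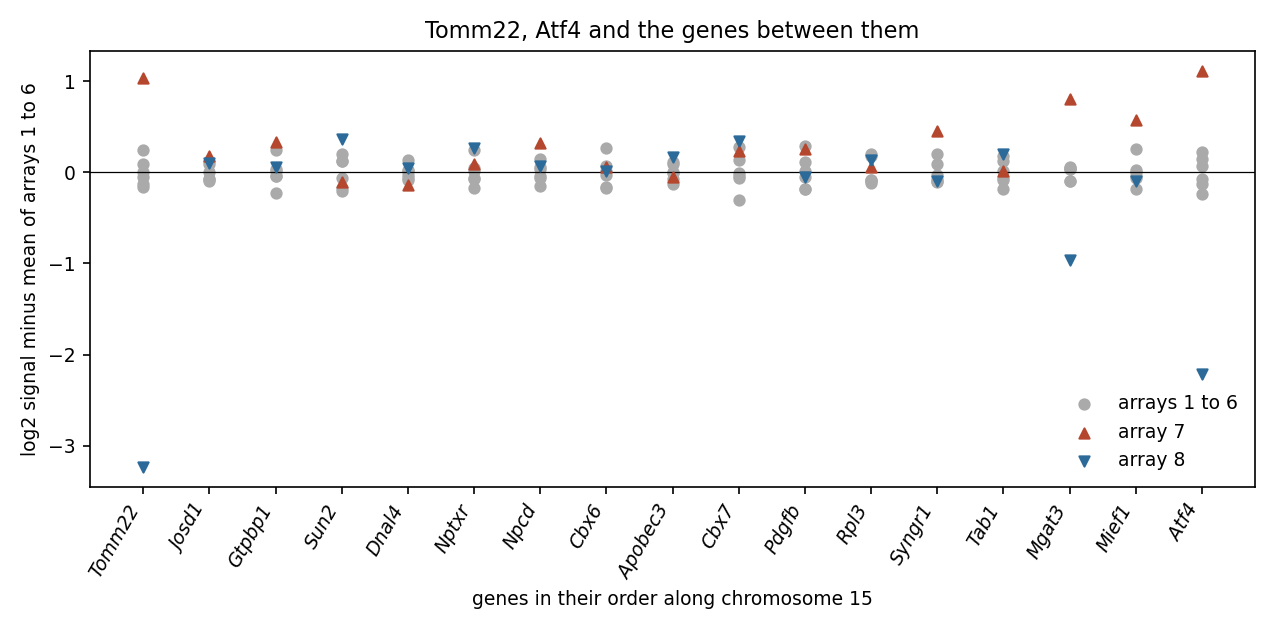
Log2 signal minus the mean of arrays 1 to 6 for the 17 protein-coding genes from Tomm22 to Atf4, in their order on chromosome 15. Array 8 (down triangles) lies below in Tomm22, Mgat3 and Atf4, array 7 (up triangles) lies above in the same genes, and arrays 1 to 6 are grey.

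Some genes varied alone or in small sets. Rnd3, a small GTPase that loosens the actin skeleton, was 9.84, 10.11 and 9.65 on arrays 3, 5 and 8 and from 7.89 to 8.16 on the others. Zeb2, a transcriptional repressor of neural development, had the same high arrays, at 9.50, 9.77 and 9.20 against at most 8.80. Kansl1l, a paralogue of a chromatin complex subunit, was 7.32, 7.44, 7.30 and 7.45 on arrays 2, 3, 6 and 7 and at most 6.21 on the other 4. Hoxa2 and Atoh7 were highest on array 1 alone, at 8.00 and 7.91 against at most 6.92 and 6.82 elsewhere. Xlr4a, of an X-linked family with near-identical copies, ranged from 7.27 on array 7 to 10.33 on array 2.

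Arrays 5 to 8 also differed from arrays 1 to 4 by number. This split was chosen because earlier results of these data separated the arrays there. The counts and p-values therefore describe that separation and are no independent test of it. By limma with Benjamini-Hochberg adjustment over 16593 genes, 1147 genes (6.91%) were higher in arrays 5 to 8 and 323 (1.95%) lower at an adjusted p under 0.05. The share that was higher, 78.0%, was 26.8% of 82 genes after quantile normalization and 11.6% of 623 without normalization, so the direction rests on the scaling. Iapp, the amylin precursor, was among the clearest. It was 7.54 to 7.70 on arrays 1 to 4 and 6.41 to 6.68 on arrays 5 to 8 (-1.07 ± 0.08 SE, limma adjusted p = 0.000104). Cacna1g was higher in arrays 5 to 8 by 0.62 ± 0.09 (SE, limma adjusted p = 0.00648), without overlap. Of the 58 ribosomal protein genes, 12 were higher and 0 lower (0 also at an unadjusted p under 0.05), with a median difference of 0.18 that was 0.05 after quantile normalization. Of the 20 choroid plexus genes, 0 passed in limma in either direction and 2 had an unadjusted p under 0.05. What the array number stands for is not given in the labels, so litter, batch and position cannot be told apart. Arrays 5 and 6, with Eif2s3y high and Xist low, both lie in the second set and the first set holds no such array, and without them 229 genes differed, 196 of them higher.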

How the data were processed

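Gene expression in P1 cerebellum was measured on 15 Illumina MouseRef-8 v2 arrays, and the 8 WT arrays were used here. Genotype was taken from the sample labels. The authors extracted images with GenomeStudio and deposited a table of signal intensity for 25697 probes on a linear scale, without normalization, and a log2 table of the same arrays with a common median. The deposited log2 values equal the log2 of the intensity table after median centring, to within 6.23e-05. No value was at or below 0. The highest intensity on a WT array was 64566 to 70126. The number of arrays limits the precision, and the closing section gives the effect of the scaling and the choice of probe. The methods describe the replicates as biological.

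Intensities were log2 transformed and scaled to the common array median, as the methods state. Probes were named through the platform annotation, updated by Entrez identifier with RefSeq (GRCm38.p6): 23978 had 1 symbol, 0 several and 1719 none, and 23962 matched RefSeq. The probe with the highest mean over WT arrays stood for its gene, and 4777 of 16593 genes had more than 1 probe. Genes were called above the 95th percentile of 1305 reference genes on all arrays. Arrays 5 to 8 were compared with 1 to 4 in limma 3.58.1 (R 4.3.3, two-sided, Benjamini-Hochberg, threshold 0.05), after it was tested on simulated data. The lists were written from general knowledge. The genes described, the lists and the array split were chosen with earlier results of these data known. Named genes were Atoh1, Calb1, Gdf10, Pax6, Cxcr4, Cxcl12, the 20 of highest mean, the 25 of highest and 10 of lowest SD, and in each list the brightest, the most variable and the defining dim members, not all of which are printed. Genes outside that rule, such as Neurod1, Ptf1a, Dcx, Shh, Fam171a1, Mgat3, Zeb2, Tac1, Tcf7l2, Tfap2d, Kansl1l, Hoxa2, Atoh7 and Iapp, were chosen after their values were seen. Promoters were the first listed for a symbol in RefSeq. Promoters of the nuclear-encoded respiratory chain list were found for 36 of its 47 genes (76.6%, against 80.4% of all genes). They held CGGAAG in 41.7%, against 22.9% of all, and are not described further. Alternatives were 3 other normalizations, the log2 table of the authors, other probe choices, other reference levels, other limma settings and leaving out each array. Summaries used pandas 2.3.3 and numpy 2.4.6 under Python 3.11.15, and plots used matplotlib 3.10.9.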

Additional observations from a re-analysis of the deposited data

Results flagged for a closer look

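In 175 genes and 33 list means, the highest or lowest array was tested for standing apart from the nearest other by Dixon's 95% criterion for 8 arrays, which chance alone gives in about 1 of 20 groups. It did so in 10 of 208 cases, no more than the 10.4 which that rate gives, and several of the genes were chosen for a high spread or after their values were seen. The cases are therefore given as values only. On array 8, Tomm22 was low at 7.05 and Atf4 at 7.46. On array 7, Slc6a2 was high at 8.60, Syn1 at 12.58 and the list of brainstem monoamine and cholinergic neurons, which holds Slc6a2, at 6.78, while Dcn was low at 10.86. On array 1, Atoh7 was high at 7.91 and Hoxa2 at 8.00, and Ccnd1 was low at 12.26 and Slc1a3 at 14.61. Arrays 2 to 6 had none, although Ttr and the genes with it split 3 arrays from 5, which this criterion cannot show.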

How the results depend on the processing

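The count of genes above the reference level and the median SD of called genes stayed within 1.5 times their value under every setting run, as did 554 of 561 list counts. The other counts were of small lists. The Hox list held 1 called gene with the mean of a gene's probes, and 5 and 0 with the reference level at the 90th and 99th percentile. At those levels the forebrain list held 2 and 0. The brainstem list held 2 and the immediate early list 6 at the 99th. Leaving out each array gave 8892 to 9007 called genes. In alternatives added after the data were seen, leaving out arrays 4, 6 and 8 together lowered the number of genes with an SD over 0.5 from 91 to 57 and the range of the choroid plexus list mean over arrays from 2.17 to 0.33, and the range of the meninges list was 0.68 to 1.10 without 1 array, lowest without array 7. The 1470 genes that differed between arrays 1 to 4 and 5 to 8 were 82 after quantile normalization, 623 without normalization, 809 after normexp background correction and 77 at an adjusted p under 0.01, and 380 (without array 3) to 1235 when 1 array was left out, with 557 to 742 without array 1, 2, 4 or 5. They were 229 without arrays 5 and 6 together, a setting added after the data were seen. The cause was not tested. Among genes above the reference level on at least 4 arrays, 89.8% of 1375 were higher in arrays 5 to 8. No paired analysis was possible because only WT arrays entered and their numbers pair no samples. Over 175 named genes, 2866 of 2975 SDs recomputed under another setting stayed within 1.5 times the reported one.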

Other observations

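Of 23 genes of early response to activity and handling, 10 were above the reference level on all arrays (43.5%, against 53.6% of all genes). Egr1, a transcription factor, was 11.03 on array 1 and 9.22 on array 8, and Dusp1, a phosphatase, was steadier at 10.70 ± 0.21. Of 19 genes of the hypoxia response, 14 were above it (73.7%), led by Ldha, lactate dehydrogenase, at 12.38 ± 0.20. Of 8 ependymal genes, 7 were (87.5%), with Foxj1, the regulator of motile cilia, steady at 7.34 ± 0.08. The ependymal list mean was 8.42, 8.38 and 8.44 on arrays 4, 6 and 8, the arrays high in choroid plexus genes. It was from 7.93 to 8.18 on the others. Mia, the most variable member, averaged 9.96 on arrays 4, 6 and 8 and 8.80 on the rest, without overlap. The cause was not tested.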
